A study of Mus musculus with 19 samples.

Results

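Mural cells are the cells that wrap blood vessels: pericytes on capillaries and venules, and vascular smooth muscle cells on arteries and larger veins. They steady the endothelium and set vessel tone, and in tendon the vessels run mainly in the sheath and between fascicles. The 9 genes described here, of 24972 listed in the table, are markers of these cells that were listed by name, with earlier results of these data known. A group of 6 marks pericytes: Rgs5, Cspg4, Mcam, Abcc9, Kcnj8 and Notch3. The other 3, Myh11, Acta2 and Tagln, encode contractile proteins of smooth muscle. All 9 passed the filter on low values, by which 16625 genes were tested.

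RNA of the plantaris tendon, a thin tendon of the mouse hindlimb, had been sequenced in 19 libraries. The control group held 3 libraries from Scx+ mice that received no tamoxifen and no growth stimulus. Tamoxifen and a growth stimulus were given to the other 4 groups of 4 libraries each: Scx+ and Scx- mice after 7 days, and Scx+ and Scx- mice after 14 days. Scleraxis (Scx), a transcription factor of tendon cells, was the target of the deletion in Scx- mice. The alleles, what drives the deletion, the kind of stimulus, the strain, the sex and the age are not given in the sources used here. No unstimulated group that received tamoxifen is analysed here, so against the control the stimulus and tamoxifen cannot be told apart. No unstimulated Scx- group is analysed either, so in Scx- mice the genotype differs from the control as well. The labels do not say whether replicates come from different animals, and p-values then measure only the spread between these samples, which may be technical.

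Values are rescaled signals: the authors' scaled value per gene and library, put on 1 scale over all 19 libraries. Library totals of the deposited signal ran from 36.6 M to 79.8 M units, and read depth is unknown. Scx was at 1.66 to 17.2 in the 8 Scx- libraries and at 319 or more in every Scx+ library, which checks the labels. A list of 20 skeletal muscle fibre genes made up 25.3% to 30.3% of the signal in the control libraries and 0.0353% to 19.9% in the stimulated ones. A list of 10 tendon lineage genes made up 0.194% to 0.663% in the control libraries and 0.338% to 2.19% in the stimulated ones. In whole tissue, fewer cells of a type and less RNA per cell cannot be told apart.

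In the unstimulated tendon Rgs5, a regulator of G-protein signalling that is among the most used pericyte markers, was the highest of the 9 per length, at 3957 ± 813 units per kb of exon (SD, n = 3). Abcc9 (2191 ± 680 per kb) and Tagln (2064 ± 765 per kb) came next and did not differ beyond their spread. Mcam (1292 ± 266 per kb) and Acta2 (1174 ± 127 per kb) overlapped too. The 4 lowest were Kcnj8 (420 ± 57.9 per kb), Myh11 (350 ± 53.5 per kb), Notch3 (337 ± 137 per kb) and Cspg4 (286 ± 90.7 per kb), whose ranges overlapped, except that every Kcnj8 value was above the highest Cspg4 value. In Scx+ tendon at day 7 the order had changed at the top: Acta2 stood at 10658 ± 986 per kb, Tagln at 5114 ± 1116 per kb and Rgs5 at 3379 ± 965 per kb (SD, n = 4).

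**Figure D1:**
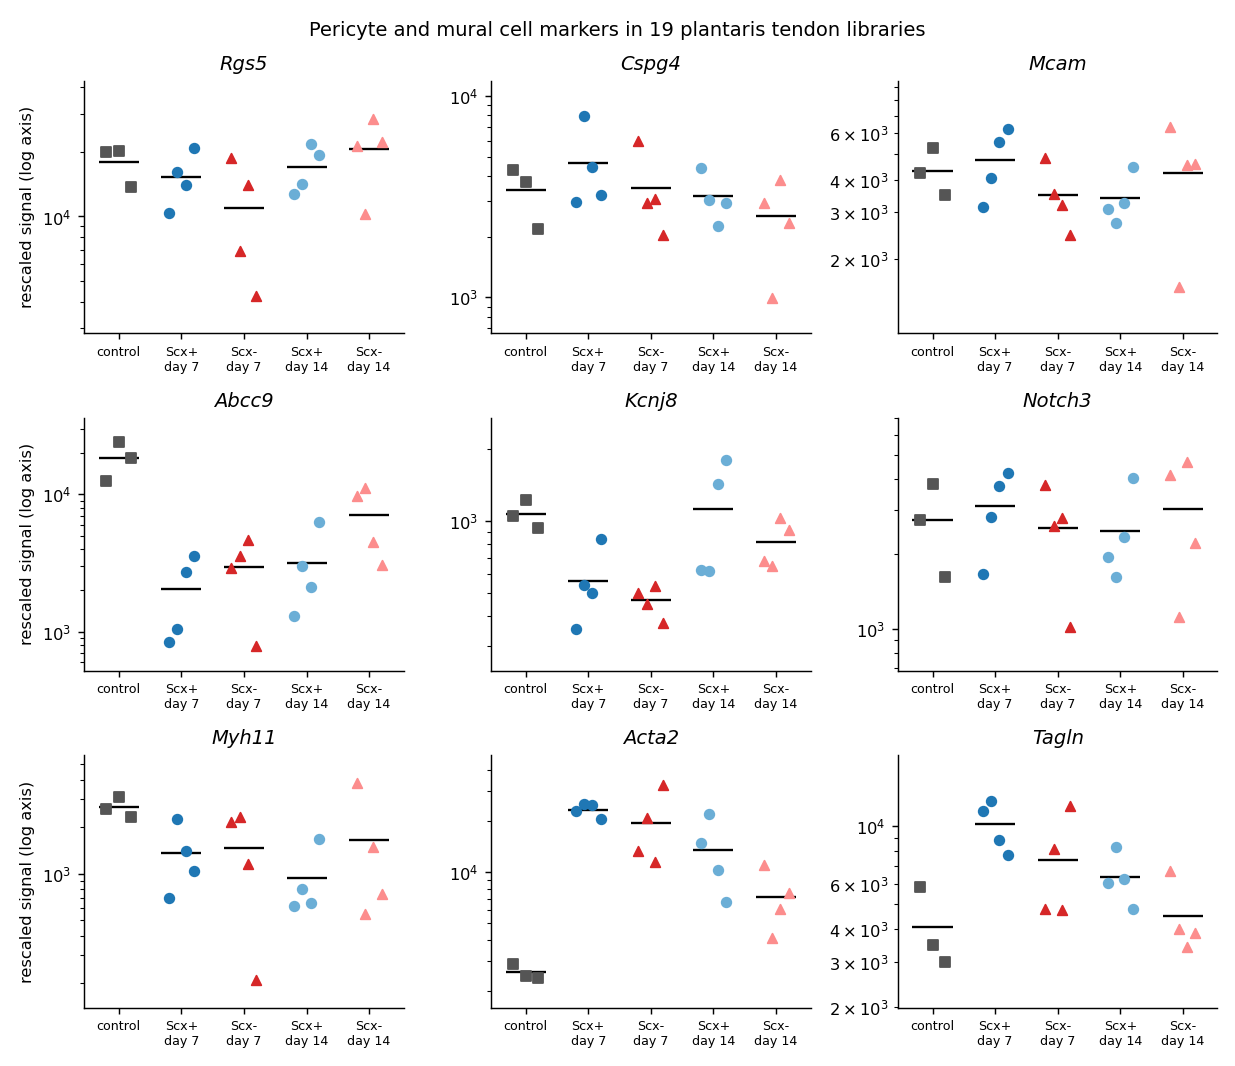
Rescaled signal (log axis, own range per panel) of the 9 markers in each of 19 libraries by group. Points are libraries and bars are group means. Acta2 is higher in all 16 stimulated libraries than in any control library, Abcc9 is lower in all 16, and Rgs5, Cspg4, Mcam and Notch3 overlap between every stimulated group and the control.

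Acta2, the smooth muscle alpha-actin that also marks myofibroblasts, rose in all 4 stimulated groups. Control libraries held 2900, 2444 and 2391. The signal was 22831, 25316, 24881 and 20592 in Scx+ after 7 days, and after 14 days 14767, 22071, 10302 and 6655. Every one of these 8 values was above the highest control value. It was 13341, 20961, 11489 and 32532 in Scx- after 7 days, then 11078, 4127, 6054 and 7527 after 14 days, again all above the control. The rise was 9.08-fold in Scx+ at day 7 (log2 difference 3.18 ± 0.38, SE; limma adjusted p = 3.08e-06) and 4.76-fold at day 14 (2.25 ± 0.38; limma adjusted p = 0.000122). In Scx- it was 7-fold at day 7 (2.81 ± 0.38; limma adjusted p = 1.19e-05) and 2.63-fold at day 14 (1.39 ± 0.38; limma adjusted p = 0.00749).

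Tagln encodes transgelin, an actin-binding protein of smooth muscle that is also found in activated fibroblasts. It rose at day 7 and by less than Acta2. Control libraries held 5834, 3482 and 2991. Scx+ libraries held 11485, 12538, 8861 and 7781 at day 7, all above the control, and 6038, 8346, 6255 and 4795 at day 14, of which 1 lay within the control range. The Scx- values were 4796, 8194, 4733 and 11932 after 7 days, and 6725, 4031, 3422 and 3888 after 14 days. At both days the Scx- libraries overlapped the control range. The rise in Scx+ at day 7 was 2.54-fold (1.34 ± 0.32; limma adjusted p = 0.00175). The Scx- rise at day 7 was 1.75-fold (0.80 ± 0.32; limma adjusted p = 0.0419). That call is lost without control replicate 2 (limma adjusted p = 0.126) or 3 (0.184), or without Scx- day 7 replicate 2 (0.0937) or 4 (0.145). It is also lost as deposited (limma adjusted p = 0.0636), with no filter (0.0533), with array weights (0.0764) or with only the groups of the comparison (0.0869). With the endothelial or the muscle list as covariate limma adjusted p was 0.0781 and 0.347. In the authors' deposited table this difference was 0.88 (adjusted p = 0.055). At day 14 the differences were 0.67 ± 0.32 in Scx+ (limma adjusted p = 0.0899) and 0.15 ± 0.32 in Scx- (limma adjusted p = 0.732). The former passed without control replicate 1 (0.94; limma adjusted p = 0.0317) and on library totals (1.27; 0.00361). The sign of the latter turned without control replicate 3 or Scx- day 14 replicate 1 (-0.06 each).

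Myh11, the smooth muscle myosin heavy chain and the most specific of the contractile markers, did not rise with them. Control libraries held 2572, 3107 and 2310. Myh11 in Scx+ was at 698, 2242, 1404 and 1032 after 7 days, and after 14 days it was at 618, 799, 644 and 1675. All 8 were below the lowest control library. Scx- libraries held 2126, 2308, 1144 and 207 at day 7, again all below the control, and 3814, 553, 1484 and 737 at day 14, where replicate 1 was above every control library. None of the 4 differences passed: -1.11 ± 0.75 in Scx+ at day 7 (limma adjusted p = 0.215), -1.63 ± 0.75 in Scx+ at day 14 (0.0776), -1.34 ± 0.75 in Scx- at day 7 (0.137) and -1.10 ± 0.75 in Scx- at day 14 (0.25). The within-group SD of Myh11, 1.05 on the log2 scale, was the largest of the 9, where the median over all tested genes was 0.39. With only the groups of the comparison in the fit, both Scx+ differences passed (limma adjusted p = 0.0261 at day 7 and 0.00354 at day 14). In the authors' deposited table Myh11 was likewise under 0.05 in Scx+ at day 7 (log2 fold change -0.98, adjusted p = 0.0154) and at day 14 (-1.48, adjusted p = 0.000419).

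The contractile markers thus parted from each other within each library. The ratio of Acta2 to Myh11 signal was 0.786 to 1.13 in the control libraries. It was 11.3 to 32.7 in Scx+ at day 7, 6.27 to 157 in Scx- at day 7, 3.97 to 27.6 among the day 14 Scx+ libraries and 2.9 to 10.2 among those of Scx-. The 157 came from Scx- day 7 replicate 4, which had the highest Acta2 and the lowest Myh11 of all libraries. Acta2 to Tagln was 0.497 to 0.799 in the control and 1.02 to 2.81 in the 16 stimulated libraries. Such a ratio does not depend on how libraries are scaled.

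**Figure D2:**
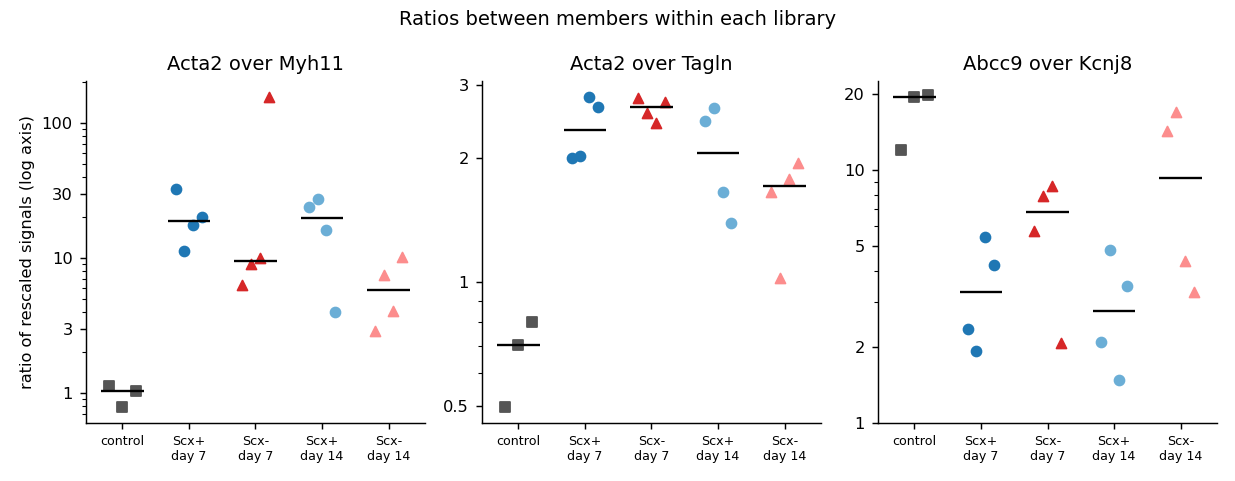
Ratios of rescaled signals between members in each library (log axes), with the group median as a bar. Acta2 over Myh11 and Acta2 over Tagln are higher in every stimulated library than in the control, and Abcc9 over Kcnj8 is 12 to 19.8 in the control and 1.47 to 17 in the stimulated libraries.

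Actin copies could in principle trade reads with Acta2, since how shared reads were assigned is not given in the sources used here. The coding sequence of Acta1, the skeletal muscle actin, is identical to that of Acta2 at 968 of 1134 bases (85.4%), with a longest identical run of 29 bases. For Actc1, the cardiac actin, the share is 82.5% and the longest run 23 bases. Acta1 moved opposite to Acta2, from 1992975 ± 263027 in the control (SD, n = 3) to 88031 ± 91059 in Scx+ at day 7 (SD, n = 4; log2 difference -6.02, 95% interval -9.20 to -2.83, limma adjusted p = 0.00269). Actg2, the enteric smooth muscle actin, rose from 52.1 ± 62.9 to 473 ± 93.8 in the same comparison (3.86 ± 0.69, limma adjusted p = 0.00013). Its coding sequence has 1131 bases, and only sequences of equal length were compared. The identity of Actg2 to Acta2 was therefore not computed, and the part of shared reads was not tested.

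The Acta2 promoter is shown because Acta2 is the member with the largest rise and a textbook target of serum response factor. Windows of 250 bases before the RefSeq start (GRCm38.p6) were found for 7 of the 9 members. A strict CArG box, which is CC, then 6 bases of A or T, then GG, was in none of the 7 and in 1.47% of 32851 such windows. A relaxed form with 1 G or C among the 6 middle bases was added after that search. It was in 7.24% of all windows and, among the members, only in Acta2, at -84 to -75 and -34 to -25 from the start (minus strand). The RBPJ site of Notch signalling, GTGGGAA on either strand, was in none of the 7 and in 5.42% of all windows. Each site is given with 10 bases on either side, the box in capitals. A match is a description of the letters only.
Acta2 distal box, chr19:34255438-34255467: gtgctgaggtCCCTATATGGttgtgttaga
Acta2 proximal box, chr19:34255388-34255417: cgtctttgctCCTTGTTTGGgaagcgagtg
The GENCODE M21 model starts Acta2 further upstream, at base 34255590, so that both boxes lie downstream of that start. Whether they lie within an exon was not examined.

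Abcc9 and Kcnj8 encode the sulfonylurea receptor SUR2 and the pore subunit Kir6.1, which together form the ATP-sensitive potassium channel of pericytes and vascular smooth muscle. A splice form of SUR2 also serves the channel of heart and skeletal muscle, where the pore is Kir6.2, the product of Kcnj11. The pair lies on the minus strand of chromosome 6, Kcnj8 at chr6:142564837-142571614 and Abcc9 at chr6:142587862-142702315 (GRCm38). The gap between them is 16247 bases, with 0 annotated genes in it.

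Abcc9 was called lower in 3 of the 4 stimulated groups, and its level followed the skeletal muscle genes. Control libraries held 12576, 23965 and 18487. The Scx+ values were 835, 1047, 2714 and 3572 after 7 days, then 1294, 2991, 2116 and 6241 after 14 days. Those of Scx- were 2900, 3585, 4635 and 779 after 7 days, followed by 9701, 11065, 4494 and 3037 after 14 days. All 16 stimulated libraries were below the lowest control library. Abcc9 was 10.4-fold lower in Scx+ at day 7 (log2 difference -3.38 ± 0.68; limma adjusted p = 0.000493) and 6.63-fold lower at day 14 (-2.73 ± 0.68; limma adjusted p = 0.00309). In Scx- it was 7.16-fold lower at day 7 (-2.84 ± 0.68; limma adjusted p = 0.00215). At day 14 in Scx- the difference was -1.52 ± 0.68 and did not pass (limma adjusted p = 0.0811), although the groups did not overlap. There it passed without Scx- day 14 replicates 1 and 2 (-2.27; limma adjusted p = 0.0302). It also passed as deposited (-1.86; limma adjusted p = 0.0341) and with only the groups of the comparison (-1.52; 0.0424). In the authors' deposited table this difference was under 0.05 as well (log2 fold change -1.40, adjusted p = 0.0138).

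The muscle list moved beside it library by library. In Scx+ at day 7 the list held 0.243% and 0.0353% of the signal in replicates 1 and 2, which had the lower Abcc9 values (835 and 1047), and 2.16% and 2.28% in replicates 3 and 4 (2714 and 3572). The list in Scx- at day 14 held 17.1% and 19.9% in replicates 1 and 2, where Abcc9 was highest of the stimulated libraries, and 4.72% and 4.49% in replicates 3 and 4. Across 19 libraries Pearson's r between Abcc9 and the mean log2 value of the 20 muscle genes was 0.93, and 0.88 after group means were removed. The control libraries lie at the upper end of both measures. With the list's mean as a covariate, the Scx+ day 7 difference of Abcc9 came to -0.74 (limma adjusted p = 0.271), while Acta2 remained called. That covariate did not overlap between control (18.53 to 19.04) and stimulated libraries (9.14 to 18.45), so its fit reaches beyond the shared range, and the part of muscle in the fall of Abcc9 was not tested.

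Kcnj8 was called lower at day 7, and at day 14 its difference from the control did not pass. Control libraries held 1049, 1229 and 936. At day 7, Scx+ libraries held 355, 542, 500 and 844 and Scx- libraries 502, 452, 537 and 376, all 8 below the control. At day 14, Scx+ libraries held 623, 618, 1437 and 1800, below and above the control range, and Scx- libraries 678, 651, 1027 and 919. At day 7 the level was 1.99-fold lower in Scx+ (-0.99 ± 0.34; limma adjusted p = 0.0184) and 2.29-fold lower in Scx- (-1.20 ± 0.34; limma adjusted p = 0.0064). The Scx+ call is lost without control replicate 2 (limma adjusted p = 0.0643) or Scx+ day 7 replicate 1 (0.0644). It is also lost with array weights (-0.86, limma adjusted p = 0.0645). On library totals neither passed (-0.32, limma adjusted p = 0.435 in Scx+; -0.50, 0.223 in Scx-). With the muscle list as covariate neither passed either (-0.45, 0.523; -0.85, 0.0952). At day 14 the difference from the control was -0.09 ± 0.34 in Scx+ (limma adjusted p = 0.836). In Scx- it was -0.40 ± 0.34 (95% interval -1.13 to 0.32; limma adjusted p = 0.352), which leaves room for a lower level. The ratio of Abcc9 to Kcnj8 signal was 12 to 19.8 in the control. In the stimulated libraries it ran from 1.47 to 17, with the values above 10 in Scx- day 14 replicates 1 and 2.

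The other subunits of this channel family fell as well. Kcnj11 went from 9581 ± 1135 in the control (SD, n = 3) to 588 ± 603 in Scx+ at day 7 (SD, n = 4; -5.35 ± 1.44, limma adjusted p = 0.00461). Abcc8, which encodes SUR1, went from 364 ± 63.9 to 52.7 ± 56.8 (-4.06 ± 1.41, limma adjusted p = 0.0193), a call lost without Scx+ day 7 replicate 2 (limma adjusted p = 0.0667). With the muscle list as covariate both signs turned, to 0.88 (limma adjusted p = 0.0418) and 2.05 (0.0182). So all 4 subunits were lower in that comparison, where 27.5% of all tested genes were, and 2 of 4 with array weights. Of the 4, 1 was lower in Scx+ at day 14 (2 without Scx+ day 14 replicate 4), beside 25.0% of all genes. In Scx-, 2 were lower at day 7, beside 25.9%, and 0 at day 14, beside 18.3%. In Scx- at day 14 limma gave 1 at an unadjusted p under 0.05, beside 52.0% of all genes.

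**Figure D3:**
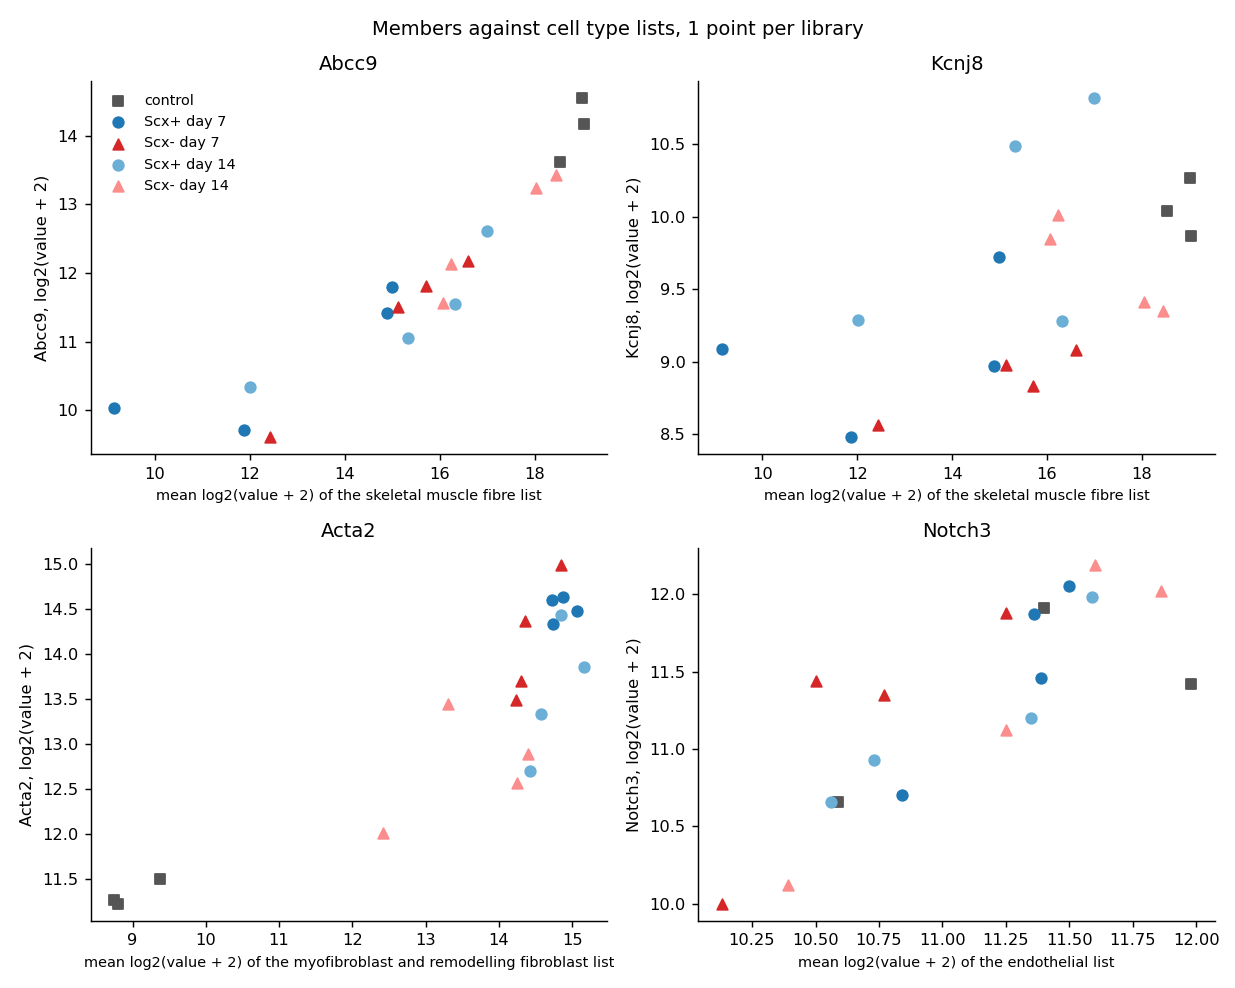
Log2 values of Abcc9, Kcnj8, Acta2 and Notch3 (y axes) against the mean log2 value of a cell type list (x axes), 1 point per library. Abcc9 rises with the muscle list along 1 band through all groups, Kcnj8 scatters more, Acta2 and the remodelling list are both lowest in the 3 control libraries, and Notch3 rises with the endothelial list within groups.

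Rgs5, Cspg4, Mcam and Notch3 were called in none of the 9 comparisons with limma. Rgs5 held 13724 to 20228 in the control, 10428 to 20924 in Scx+ at day 7, 12778 to 21703 in the day 14 Scx+ group and 10275 to 28576 in that of Scx-. Rgs5 in Scx- libraries of day 7 was at 18789, 6867, 13971 and 4265, of which 2 were below every other library of the study. That difference from the control was -0.92 ± 0.43 and did not pass (limma adjusted p = 0.073). It passed without Scx- day 7 replicate 1 (-1.25, limma adjusted p = 0.0158) or replicate 3 (-1.11, 0.0443), the libraries that were nearest to the control.

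Cspg4, the NG2 proteoglycan of pericytes, held 2192 to 4267 in the control and 2029 to 7910 at day 7. At day 14 it held 992 to 4404, the lowest in Scx- replicate 2. Mcam, the adhesion molecule CD146 of pericytes and endothelium, held 3487 to 5261 in the control and 1557 to 6323 in the stimulated libraries. Notch3, the Notch receptor of mural cells, held 1615 to 3833 in the control and 1022 to 4681 in the stimulated libraries. Each stimulated group of these 3 genes overlapped the control. Over the 4 genes and 4 control comparisons, the 16 log2 differences ran from -0.92 to 0.39, with limma adjusted p from 0.073 to 0.973. Standard errors of 0.37 to 0.52 leave room for changes of moderate size. For Notch3 in Scx+ at day 7 the 95% interval of the difference was -0.90 to 1.28.

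**Figure D4:**
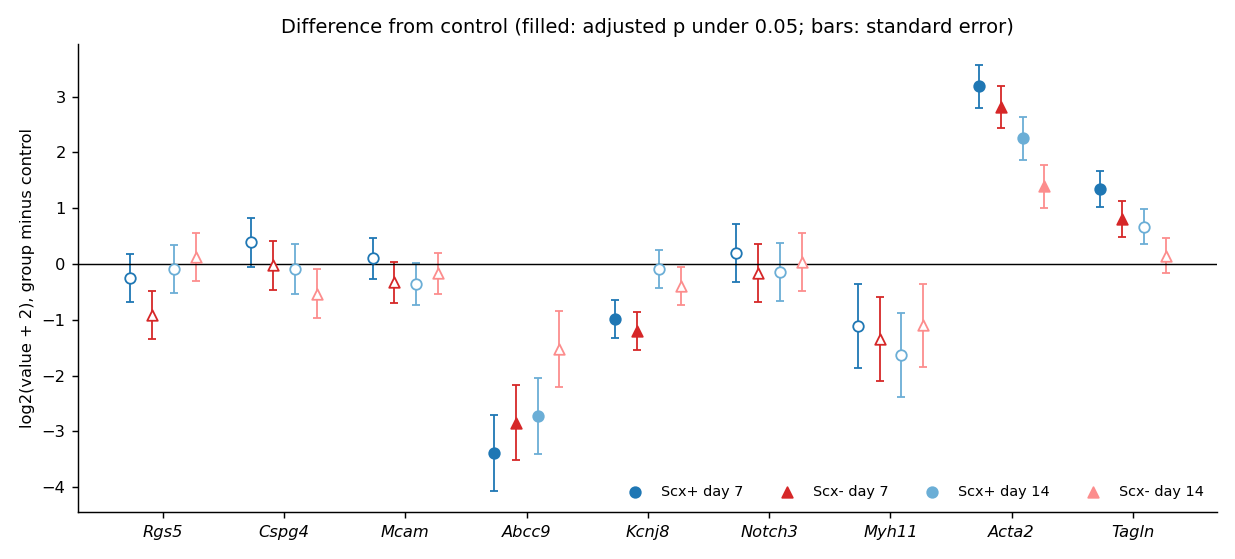
Log2 difference of each stimulated group from the control (y axis) for the 9 markers, with the standard error of the fit as bars. Filled points passed an adjusted p of 0.05: Acta2 in 4 groups, Abcc9 in 3, Kcnj8 and Tagln in 2 each.

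Counted over the 9 markers, 2 were higher and 2 lower in Scx+ at day 7, where 33.8% of all tested genes were called higher and 27.5% lower. In Scx+ at day 14, 1 was higher and 1 lower, beside 30.9% and 25.0% of all genes. In Scx- at day 7, 2 were higher and 2 lower, beside 32.3% and 25.9%. In Scx- at day 14, 1 was higher and 0 lower, beside 25.5% and 18.3%. In none of these comparisons was the share of markers called above that of all genes. The median log2 difference of the 9 was 0.10, -0.09, -0.33 and -0.17 in these comparisons, in the same order, beside 0.18, 0.15, 0.14 and 0.12 over all tested genes. The 4 comparisons share their 3 control libraries. With the muscle list as covariate the calls came down to Acta2 alone in Scx+ at day 7, and to Acta2 and Abcc9 in Scx- at day 7.

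No marker differed between Scx- and Scx+ tendon past the threshold. At day 7, 0 of 9 passed with limma, where 0.770% of all genes did, and 0 were under an unadjusted p of 0.05, beside 7.26% of all genes. The 9 log2 differences ran from -0.67 to 0.54, and 8 were below 0. Acta2 was 19581 ± 9558 in Scx- and 23405 ± 2166 in Scx+ (-0.38 ± 0.36; limma adjusted p = 0.889). Tagln was 7414 ± 3419 and 10166 ± 2218 (-0.54 ± 0.30; limma adjusted p = 0.782). Rgs5 was 10973 ± 6631 and 15361 ± 4387 (-0.67 ± 0.39; limma adjusted p = 0.785). The endothelial list was negative for 14 of 14 genes in this comparison, with 0 called and a median of -0.54. Its summed share of the signal was 0.0459% to 0.102% in Scx- and 0.0709% to 0.121% in Scx+. At day 14 the endothelial list was positive for 13 of 14 genes, with 0 called and a median of 0.21. Other lists were of 1 sign at day 7 too. The muscle list was positive for 20 of 20 genes (0 called, median 2.25). The macrophage and monocyte list was positive for 10 of 10 (1 called, median 0.52). The median over all genes was 0.02 at both days.

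At day 14, 0 of 9 passed with limma, where 0.517% of all genes did, and 1 was under an unadjusted p of 0.05, beside 14.6% of all genes. That was Acta2, at 7196 ± 2939 in Scx- and 13449 ± 6637 in Scx+ (-0.86 ± 0.36; 95% interval -1.60 to -0.11; unadjusted p = 0.0273, limma adjusted p = 0.297). Tagln was 4517 ± 1495 and 6358 ± 1473 (-0.52 ± 0.30; limma adjusted p = 0.42). Abcc9 was 7074 ± 3906 and 3160 ± 2168 (1.21 ± 0.63; limma adjusted p = 0.387), and it came to 0.34 with the muscle list as covariate. For all 9 genes the Scx- and Scx+ libraries overlapped at both days. The list of 10 remodelling fibroblast genes was negative for 10 of 10 at day 14, with 2 called lower and a median of -1.14. It held 0.269% to 1.35% of the signal in Scx- and 1.22% to 2.02% in Scx+. The difference between the 2 genotype effects passed for 0 of 9 markers with limma, beside 0.0180% of all genes, and 0 were under an unadjusted p of 0.05, beside 4.34%. Neither genotype comparison in the authors' deposited table had a marker under an adjusted p of 0.05 (0 of the 9).

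From day 7 to day 14 Acta2 fell by 1.41 ± 0.36 on the log2 scale in Scx- (limma adjusted p = 0.0268), with all 4 day 14 libraries below all 4 day 7 libraries. It was the only marker called, where 3.86% of all genes were called lower. The call is lost without Scx- day 7 replicate 2 (limma adjusted p = 0.086) or 4 (0.111), or without Scx- day 14 replicate 2 (0.0948). It is also lost with array weights (limma adjusted p = 0.0531), the endothelial list (0.0671) or the muscle list (0.0955) as covariate, or only the groups of the comparison (0.109). With the replicate number as a block limma adjusted p was 0.0511, and without Scx- day 14 replicates 1 and 2 it was 0.0932. In Scx+ the Acta2 difference was -0.93 ± 0.36 (limma adjusted p = 0.334), and 0 of 9 passed, beside 0.0301% of all genes. There 3 of 9 were under an unadjusted p of 0.05, as were 10.6% of all genes: Acta2, Tagln (-0.68 ± 0.30, limma adjusted p = 0.433) and Kcnj8 (0.90 ± 0.32, limma adjusted p = 0.283). In Scx- the difference was 0.79 ± 0.32 for Kcnj8 (limma adjusted p = 0.153), without overlap between the days. It was -0.66 ± 0.30 for Tagln (0.211), 1.04 ± 0.39 for Rgs5 (0.132) and 1.32 ± 0.63 for Abcc9 (0.233). Rgs5 passed without Scx- day 7 replicate 1 (1.38, limma adjusted p = 0.0493). In the authors' deposited table the marker with an adjusted p under 0.05 from day 7 to day 14 was Tagln in Scx+ (log2 fold change -0.67, adjusted p = 0.0499). In Scx- there were Kcnj8 (0.83, adjusted p = 0.00921) and Acta2 (-1.46, adjusted p = 0.00726).

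The 9 markers did not move as 1 group across libraries, by Pearson's r over 19 libraries on log2 values. The libraries share group, scale and tissue makeup, so these are descriptions. Mcam and Notch3 stood closest (r = 0.88, and 0.89 after group means were removed). Acta2 and Tagln followed (0.85 and 0.79). Rgs5 was near Notch3 (0.71 and 0.83) and Kcnj8 (0.69 and 0.64). Myh11 was nearer to Notch3 (0.70 and 0.78) than to Acta2 (-0.40 and -0.15) or Tagln (-0.29 and -0.18). Abcc9 and Kcnj8, the channel partners, were at 0.57 and 0.42.

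Several members moved with the endothelial list, and against the macrophage list. With the mean of its 14 genes r was 0.81 for Notch3, 0.80 for Mcam, 0.78 for Rgs5 and 0.64 for Myh11, and 0.86, 0.82, 0.75 and 0.67 after group means were removed. It was 0.55 for Kcnj8 and 0.48 for Cspg4 (0.60 and 0.64 after removal). For Acta2 and Tagln it was -0.25 and -0.12. With the 10 macrophage and monocyte genes r was -0.31 for Notch3, -0.32 for Mcam, -0.63 for Rgs5 and -0.60 for Myh11. After group means were removed it was -0.75, -0.62, -0.69 and -0.78. For Kcnj8, Abcc9 and Cspg4 the macrophage r was -0.71, -0.78 and -0.03 (-0.41, -0.50 and -0.48 after removal). Other lists moved with some of these members too. With the Schwann cell list r was 0.54 for Cspg4 and 0.63 for Mcam (0.55 and 0.57 after removal). With the muscle list it was 0.54 for Kcnj8 (0.36 after removal). The lowest endothelial means were in Scx- day 7 replicate 4 (10.13 on the log2 scale) and Scx- day 14 replicate 2 (10.39). Those libraries also held the 2 lowest values of Notch3 (1022 and 1114), and among them were the lowest values of Rgs5 (4265), Myh11 (207), Mcam (1557) and Cspg4 (992). Acta2 was at r = 0.85 with the remodelling fibroblast list, 0.83 with the macrophage list and -0.78 with the muscle list. After group means were removed these were 0.48, 0.31 and -0.38. The remodelling list holds genes active in myofibroblasts and scar matrix. It rose in 10 of 10 members in each of the 4 control comparisons, beside 25.5% to 33.8% of all tested genes. It went from 0.0131% to 0.0291% of the signal in the control to 0.269% to 2.24% in the stimulated libraries. The macrophage list rose in 10 of 10 genes at day 7 in both genotypes, beside 33.8% (Scx+) and 32.3% (Scx-) of all tested genes. At day 14 it rose in 8 (Scx+) and 6 (Scx-), beside 30.9% and 25.5%. It went from 0.0298% to 0.0741% of the signal in the control to 0.086% to 0.68% in the stimulated libraries. The part of either list in the rise of Acta2 and Tagln, or in the spread of the other members, was not tested.

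Genes at 5 ppm or more of a library's total on average numbered 11524, and among them the nearest in pattern over 19 libraries were found for each member. For Rgs5 they were Tinagl1 (r = 0.89), Gucy1a1 (0.89) and Arhgef15 (0.86). For Mcam they were Nrarp (0.93), Notch1 (0.90) and Kdr (0.90). For Notch3 they were Nrarp (0.92), Cdh5 (0.92), the endothelial cadherin, and Mylk (0.89). For Myh11 they were Sema3g (0.87), Bcam (0.86) and Gata2 (0.85). Kcnj8 was nearest to Sept4 (0.86), Tmem204 (0.85) and Gucy1a1 (0.84), and Cspg4 to Piezo1 (0.87), Dagla (0.86) and Atp10a (0.83). Abcc9 was nearest to Kif1b (0.99), Etl4 (0.99) and Prkaa2 (0.98), Acta2 to Arl6ip1 (0.95), D17H6S56E-5 (0.94) and Uhrf1 (0.94), and Tagln to Actg2 (0.86), Acta2 (0.85) and Rfc2 (0.85).

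Other pericyte genes went both ways. Of 20 tested, 9 were higher and 2 lower in Scx+ at day 7, beside 33.8% and 27.5% of all tested genes, with a median log2 difference of 0.83 beside 0.18 over all genes. In Scx+ at day 14, 10 were higher and 2 lower (beside 30.9% and 25.0%). The latter was 1 without control replicate 2 or 3 or Scx+ day 14 replicate 1. At day 7 in Scx-, 9 were higher and 3 lower (beside 32.3% and 25.9%). At day 14 in Scx-, 8 were higher and 0 lower (beside 25.5% and 18.3%), and 1 was lower without control replicate 3 or Scx- day 14 replicate 2. Pdgfrb, the receptor that draws pericytes to vessels and that fibroblasts also carry, rose from 3559 ± 983 to 10777 ± 2053 in Scx+ at day 7 (1.62 ± 0.28, limma adjusted p = 0.000117). Anpep, an aminopeptidase of pericytes, fibroblasts and myeloid cells, rose by 2.27 ± 0.24 on the log2 scale (limma adjusted p = 9.36e-07). Rgs4, a relative of Rgs5, rose by 2.55 ± 0.33 (limma adjusted p = 6.08e-06), and Ndufa4l2, a mitochondrial protein of pericytes and of hypoxic cells, by 2.41 ± 0.36 (limma adjusted p = 2.16e-05). These 4 were higher in all 4 stimulated groups. By sign, 16 of the 20 differences were positive and 4 negative in Scx+ at day 7. Means were lower there for Art3 (10513 ± 666 to 938 ± 338) and Vtn (1144 ± 545 to 263 ± 110). Higd1b stood at 112 ± 86.5 in the control and 110 ± 42.4 in Scx+ at day 7. In that comparison 5 of 10 fibroblast genes rose and 1 fell, and 10 of 10 macrophage and monocyte genes rose. Their part was not tested.

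Smooth muscle contractile genes other than the members were called at about the shares of all genes. Of 23 tested, 8 were higher and 8 lower in Scx+ at day 7, beside 33.8% and 27.5%, with a median of 0.18, equal to that of all genes. Without control replicate 3, 5 were higher, and with the muscle list as covariate 4 were higher and 4 lower. Cald1, the actin-binding caldesmon, rose from 2215 ± 429 to 15392 ± 1349 (2.81 ± 0.30, limma adjusted p = 1.09e-06). Lmod1, a leiomodin of smooth muscle, fell from 2482 ± 544 to 144 ± 39.4 (-4.11 ± 0.58, limma adjusted p = 1.48e-05). Sncg, gamma-synuclein, fell by 3.19 ± 0.27 on the log2 scale (limma adjusted p = 7.79e-08). It is also expressed in fat cells. A list of 9 adipocyte genes was lower in 9 of 9 in all 4 control comparisons, beside 18.3% to 27.5% of all genes. That list held 0.185% to 0.25% of the signal in the control and 0.0079% to 0.0867% in the stimulated libraries, and its part was not tested. Srf, the factor that binds CArG boxes, fell from 6313 ± 400 to 2803 ± 271 (-1.17 ± 0.17, limma adjusted p = 2.17e-05). These 4 kept their direction and were called in all 4 stimulated groups. The list shares Tpm1 with skeletal muscle, a gene named after its values were seen, which fell from 1286627 ± 141626 to 40593 ± 28988 (-5.33 ± 0.87, limma adjusted p = 6.63e-05). In Scx+ at day 14 the list had 5 higher and 7 lower, beside 30.9% and 25.0% of all genes. In Scx- at day 7 it had 6 and 7, beside 32.3% and 25.9%. In Scx- at day 14 it had 4 and 4, beside 25.5% and 18.3%. The former was 2 without control replicate 2 or 3 or without Scx- day 14 replicate 1 or 4.

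Of 14 Notch pathway genes besides Notch3, 5 were higher and 1 lower in Scx+ at day 7, beside 33.8% and 27.5% of all genes. The latter was 2 without Scx+ day 7 replicate 4. Jag1, a ligand of Notch3, rose by 1.20 ± 0.33 on the log2 scale (limma adjusted p = 0.00444). The receptor Notch2 rose by 1.10 ± 0.22 (limma adjusted p = 0.000297). The DNA-binding partner Rbpj rose by 0.99 ± 0.21 (limma adjusted p = 0.000615), and the coactivator Maml1 by 0.93 ± 0.16 (limma adjusted p = 7.21e-05). With the muscle list as covariate 1 of the 14 stayed higher, and on library totals 8 were. At day 14 in Scx+, 4 were higher and 2 lower, beside 30.9% and 25.0% of all genes. The latter was 0 without control replicate 1 or 2 or Scx+ day 14 replicate 1 or 2, and 1 without Scx+ day 14 replicate 3. In Scx- at day 7, 5 were higher and 2 lower, beside 32.3% and 25.9%. The latter was 1 without control replicate 1 or 2 or Scx- day 7 replicate 3 or 4. At day 14 in Scx-, 4 were higher (2 without control replicate 3) and 0 lower (1 without Scx- day 14 replicate 1), beside 25.5% and 18.3%.

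Of 12 signals that recruit mural cells to vessels, 4 rose and 0 fell in Scx+ at day 7, beside 33.8% and 27.5% of all genes, and 9 rose on library totals. Besides Pdgfrb these were Tgfb1 (819 ± 180 to 3102 ± 72.8; 1.94 ± 0.16, limma adjusted p = 6.94e-08), its receptor Tgfbr2 (1.15 ± 0.26, limma adjusted p = 0.000858) and Cdh2. Cdh2, the N-cadherin that joins pericytes to endothelium and is also found on muscle and fibroblasts, rose from 86.1 ± 44.1 to 1266 ± 196 (16-fold, 95% interval 3.22 to 4.78 on the log2 scale, limma adjusted p = 2.47e-07). The other 8 were not called, and by sign 9 of the 12 differences were positive and 3 negative. Means were lower for Pdgfb (2111 ± 480 to 1670 ± 537), Angpt1 (869 ± 163 to 802 ± 140) and Tek (2210 ± 995 to 1764 ± 269). Pdgfrb is counted among the other pericyte genes as well. In Scx+ at day 14, 4 of the 12 signals rose and 1 fell, beside 30.9% and 25.0% of all genes. The latter was 0 without control replicate 2 or 3 or Scx+ day 14 replicate 1. For Scx- at day 7, 4 rose and 2 fell, beside 32.3% and 25.9%. The latter was 0 without control replicate 2 or Scx- day 7 replicate 2 or 4, and 1 without control replicate 3 or Scx- day 7 replicate 1 or 3. For Scx- at day 14, 5 rose and 0 fell, beside 25.5% and 18.3%. Between the genotypes 0 genes of these pathway lists passed with limma at either day. Unadjusted p-values under 0.05 numbered 1 and 2 of the 20 pericyte genes, 0 and 6 of the 23 contractile genes, 0 and 1 of the 14 Notch genes, 1 and 1 of the 12 recruitment signals, and 0 and 0 of the 4 channel subunits at days 7 and 14, beside 7.26% and 14.6% of all genes.

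Annotated neighbours overlap the exons of 4 members on the opposite strand, and whether the counting used strand is not given in the sources used here. For Tagln (chr9:45929619-45936058, minus strand) the neighbours are Pcsk7 and Gm48529. Pcsk7 was 1582 ± 321 in the control and 1833 ± 169 in Scx+ at day 7 (0.23 ± 0.17, limma adjusted p = 0.245), so it did not move with Tagln past the threshold. For Abcc9 the neighbour is 5330439B14Rik, at 10.3 to 83.2 in the control and 0 to 11.2 in the stimulated libraries. The lowest Abcc9 value was 779. Like Abcc9 it was lower than the control in Scx+ at day 7 (-3.61 ± 0.73, limma adjusted p = 0.000384) and day 14 (-3.01, 0.0021). In Scx- the differences were -3.07 (0.00166) and -2.16 (0.0227). Mcam (chr9:44134469-44142727) overlaps Gm10687, at 121 to 141 in the control and 20 to 158 in the stimulated libraries. Gm10687 was called lower in Scx- at day 7 (-1.38 ± 0.48, limma adjusted p = 0.0198). The part of shared reads was not tested. Notch3 (chr17:32120820-32166852, minus strand) overlaps Gm17276. The other members have no overlapping gene: Rgs5 (chr1:169655501-169695813), Cspg4 (chr9:56865033-56899870), Myh11 (chr16:14194535-14291372, minus strand), Acta2 (chr19:34241090-34255590, minus strand) and Kcnj8.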

How the data were processed

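The authors deposited a scaled signal per gene and library, and a table of log2 fold changes, standard errors, mean signals and adjusted p-values for 8 comparisons. Per the submitters' processing notes FastQC, STAR, DESeq2 and mm10 were used, with no versions or roles. The deposited signal values are not whole numbers and reads could not be recovered from them, so the depth is unknown and no count test was run. Values were divided by 1 factor per library (0.838 to 1.09, medians of ratios over 13703 genes above 0 in every library). A gene entered the test, on log2(value + 2), if 3 or more libraries had it at 10 or above; folds of low genes are understated. All 5 groups entered 1 model (limma 3.58.1, R 4.3.3, variance trend, robust moderation), with Benjamini-Hochberg adjustment over 16625 genes at 0.05. The model was tested on simulated data. Members and lists were chosen with earlier results of these data known. Named besides the 9 markers are up to 4 genes per pathway list by smallest p, the 3 nearest genes per marker and the actin copies. Art3, Vtn, Higd1b, Pdgfb, Angpt1 and Tek were named after their values were seen. Alternatives were other scalings, filters, pseudocounts of 0.5 and 8, covariates, weights, a replicate block, subsets and each library left out. Positions and exon lengths are from GENCODE M21 (GRCm38), promoter windows from RefSeq. Tagln and Myh11 had no promoter window.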

Additional observations from a re-analysis of the deposited data

How the results depend on the processing

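Of 686 alternative values of the 33 marker differences given singly, 642 kept direction and side of the threshold, 28 lost a call, 11 gained one and 5 changed sign. Differences not called at first count as kept if they stay uncalled with the same sign, so the 642 do not measure how stable calls are. The 28 losses can fall only on called differences. Most were of Tagln in Scx- at day 7 against the control and of Acta2 in Scx- from day 7 to day 14. Acta2 against the control was called in every alternative run, at 2.52 to 3.86 in Scx+ and 2.39 to 3.50 in Scx- at day 7, and 1.85 to 2.86 and 1.06 to 1.87 at day 14. The sign changes were those of Tagln in Scx- at day 14 against the control: -0.19 as deposited, 0.00 with the muscle list as covariate, -0.12 without Scx- day 14 replicates 1 and 2, and -0.06 to 0.43 with single libraries left out. Of 400 alternative values of 20 other genes, 6 lost a call and 3 changed sign, all 3 with the muscle list as covariate: Kcnj11 (0.88), Abcc8 (2.05) and Acta1 (0.51). Acta1 itself belongs to that list, so the loss of its fall under that covariate is built in. That covariate left 1 marker called in Scx+ at day 7 against 4, and 2 in Scx- at day 7 against 4. In Scx- at day 14 against the control, 2 markers in place of 1 were called as deposited, without Scx- day 14 replicates 1 and 2, or with only the groups of the comparison. In Scx- from day 7 to day 14, 2 were called as deposited. There 0 were called with the muscle list or the endothelial list as covariate, with array weights, without Scx- day 14 replicates 1 and 2, or with only the groups of the comparison. With single libraries left out the count there was 0 to 2. The cause of these moves was not tested.

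Same-numbered replicates were not treated as pairs, since no label says what the numbers mark. Of 36 correlations of their deviations 6 were over 0.1 (range -0.43 to 0.35). Such correlations also carry tissue makeup and can neither show nor exclude a shared animal, litter or day. With the number as a block, 0 markers were called in Scx- from day 7 to day 14, where Acta2 was at -1.41 (limma adjusted p = 0.0511). Over all genes, calls ran from 41 to 478 (main 128) between genotypes at day 7, from 8 to 993 (86) at day 14, and from 0 to 37 (3) for the difference of genotype effects. They ran from 0 to 616 (5) from day 7 to day 14 in Scx+ and from 282 to 2604 (873) in Scx-. Against the control they ran from 4678 to 11420 (10192) and 6494 to 10537 (9293) in Scx+ at days 7 and 14, and from 7021 to 10933 (9677) and 4271 to 8568 (7291) in Scx-. Library totals moved the median of all genes against the control to 0.58 to 0.83, and the deposited scale moved that of Scx- at day 14 to -0.20. The depth behind the values is unknown.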
